A study of Nothobranchius furzeri with 15 samples.

Results

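The insulin transcript of the annual killifish Nothobranchius furzeri was described over 3 organs and between 5 livers. It is the 1 entry, of 18311 in the killifish transcript catalogue, that the authors paired with the zebrafish gene ENSDARG00000035350, and it carries the identifier Nofu_gene_3_0008718. The files give no symbols, and ins is the name of the zebrafish gene with that identifier. The authors marked the pairing as a best bidirectional hit, and the deposited values imply a counted length of 704 bases. RNA sequencing covered 5 liver, 5 brain and 5 skin samples of the laboratory strain GRZ, all of fish aged 12 weeks with no treatment given in the labels. Samples are called here by the number in their title, which recurs across organs (10, 11, 13, 14 and 15 for liver and brain, 5, 6, 7, 13 and 14 for skin), although no label says that a number marks a fish.

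Insulin is a peptide hormone that lowers blood glucose, and in vertebrates its gene is expressed chiefly in the beta cells of the pancreatic islets. In bony fishes islet tissue can be gathered in compact bodies apart from the gut, while digestive pancreas tissue lies scattered along the gut and, in some species, within the liver. The liver is known as a target of the hormone, through receptors on hepatocytes, and not as the place where it is made. The gene was selected on its measured counts in these samples, which were already known to be high and uneven in liver, so its levels over organs and livers are a description and carry no test.

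ins was abundant in 4 of 5 livers, present at a much lower level in the remaining one, and close to the limit of counting in brain and skin. Levels are given in CPM, counts per 1e6 counts of a library, after scaling by TMM, a method that adjusts each library total for differences in composition. The livers held 42672 counts of ins in liver 15, 33183 in liver 10, 13270 in liver 11, 5282 in liver 14 and 164 in liver 13. The brains held 44 counts in brain 10, 15 in brain 13, 12 in brain 11, 10 in brain 15 and 4 in brain 14. The skins held 8 counts in skin 7, 5 in skin 14, 3 each in skin 5 and skin 13, and 2 in skin 6. Every liver lay above every brain and every skin, while the brains and skins overlapped. The total number of counts, 20.6 to 26.1 M in liver, 19.6 to 30.8 M in brain and 17.7 to 22.2 M in skin, varied far less than the counts of ins.

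As TMM-scaled levels, ins averaged 1249 ± 1149 CPM in liver, 0.409 ± 0.285 CPM in brain and 0.195 ± 0.0966 CPM in skin (SD, n = 5 each). With library totals alone the means were 785 ± 770 CPM in liver, 0.678 ± 0.464 CPM in brain and 0.199 ± 0.104 CPM in skin. The mean of ins in liver exceeded the mean of 98.8% of all catalogue entries there, against 13.6% of entries in brain and 10.3% in skin. Counts pooled over the 5 libraries of each organ gave a ratio of liver to brain of 2999, with a 95% exact counting interval of 2425 to 3755. The ratio of liver to skin was 6640, with an interval of 4344 to 10728. Both intervals cover counting error only and leave out the spread between samples of an organ. Even the lowest liver stood 16.8 times above the highest brain and 40.9 times above the highest skin. In the fit across all entries the log2 fold change was 11.53 for liver over brain and 12.58 for liver over skin, where skin contributed 21 counts. The entry had passed the filter on low counts through its level in liver. In bulk tissue, fewer cells of a type and less RNA per cell cannot be told apart.

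**Figure D1:**
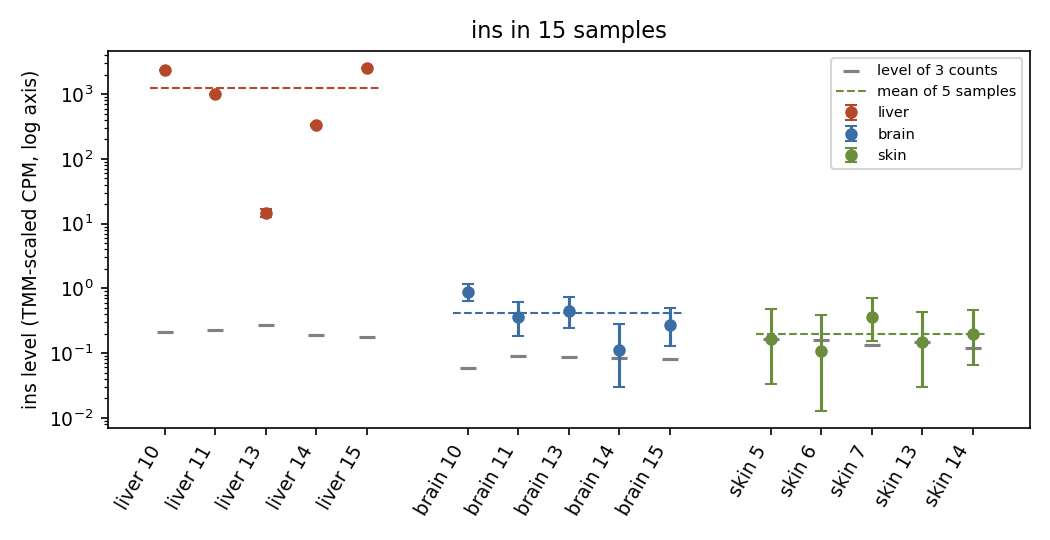
Level of ins in TMM-scaled CPM (log axis) in each of 15 samples. Points are samples, error bars 95% exact Poisson intervals (counting error only), dashed lines the mean of 5 samples and grey dashes the level that 3 counts stand for in that library. Livers run from 14.6 to 2525 CPM, while brains and skins lie between 0.107 and 0.870 CPM, many of them near the grey dashes.

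The livers were ordered as liver 15, liver 10, liver 11, liver 14 and liver 13. Liver 15 stood at 2525 CPM, with a 95% exact Poisson interval of 2501 to 2549, and liver 10 at 2363 CPM, with an interval of 2338 to 2389. Liver 11 stood at 1007 CPM, with an interval of 990 to 1024, and liver 14 at 336 CPM, with an interval of 327 to 346. Liver 13 stood at 14.6 CPM, with an interval of 12.5 to 17.03. No neighbours in this order had overlapping intervals, but the intervals cover counting error only, and with 1 library for each liver the spread of a repeat measurement is unknown. Liver 15 and liver 10 together held 80.2% of all ins counts found in liver. The SD between the livers was 3.07 on the log2 CPM scale.

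Per length, ins ranked among the most abundant transcripts of some livers. In deposited RPKM (reads per kilobase of entry and per 1e6 counted reads) it stood at 2601 in liver 15, 1877 in liver 10, 796 in liver 11, 288 in liver 14 and 11.3 in liver 13. These values placed it 21st of the 18311 entries by RPKM in liver 15, 45th in liver 10, 123rd in liver 11, 244th in liver 14 and 2690th in liver 13. The share of all counts that belonged to ins was 0.183% in liver 15 (exact Clopper-Pearson interval 0.181 to 0.185%) and 0.000797% in liver 13 (0.00068 to 0.000929%).

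A spread as wide as that of ins was rare among transcripts of liver. The highest liver held 173 times the level of the lowest, which ranked 30th among the 8753 entries with a mean of at least 10 CPM in liver. The median entry of these varied 1.85-fold between livers, 95% of them varied at most 6.30-fold, and 232, or 2.65%, varied at least 10-fold. The wide range of ins rested on 1 library: without liver 13 the ratio was 7.50. Entries with a mean of at least 10 CPM varied by a median of 1.4-fold between brains and 1.56-fold between skins.

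**Figure D2:**
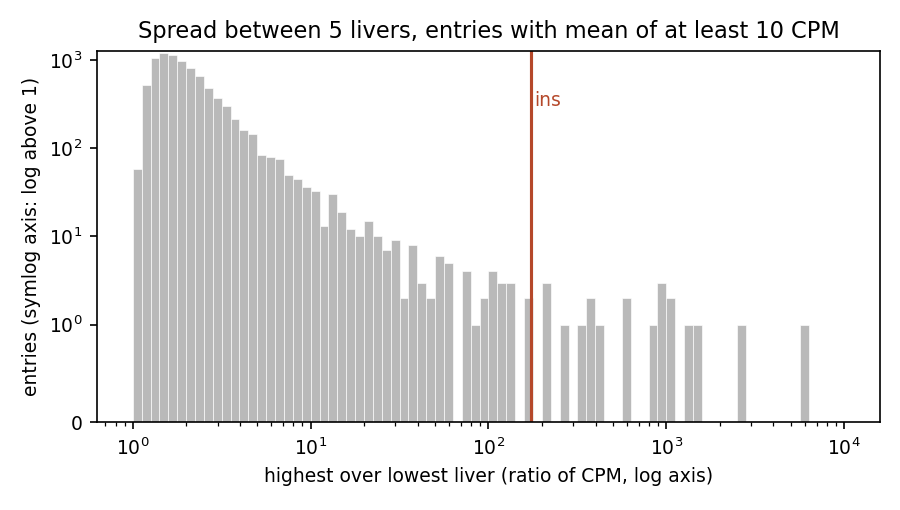
Ratio of the highest to the lowest liver in CPM (x, log axis) for catalogue entries with a mean of at least 10 CPM in liver, and the number of entries per bin (y, log above 1). The line marks ins at 173, to the right of nearly all entries; 8 entries with a liver at 0 and 1 with a ratio beyond the axis are not drawn.

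Other measures of the libraries were set beside the level of ins in the livers. Liver 13 held the fewest counts of the livers, 20.6 M against 23.3 to 26.1 M in the other livers. The 912 other entries at least 4-fold higher in liver than in both brain and skin took 50.6% of the counts in liver 13, against 47.8% in liver 15 and 53.7 to 58.03% in the remaining livers. Their median log2 deviation from the mean of the livers was 0.12 in liver 13, between -0.04 and 0.15 in liver 10, liver 11 and liver 14, and -0.31 in liver 15. Liver 15, where ins was highest, also spread its counts more evenly, with 181 entries needed for 50% of the counts against 101 to 110 in the other livers. The part of these differences in the level of ins was not tested.

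Levels in the other organs were set beside the livers by title number. By shared title number, liver 15 reached 2525 CPM of ins beside 0.268 CPM for brain 15, liver 10 reached 2363 CPM beside 0.870 CPM for brain 10, and liver 11 reached 1007 CPM beside 0.358 CPM for brain 11. Number 14 gave 336 CPM for its liver, 0.111 CPM for its brain and 0.201 CPM for its skin. Number 13 gave 14.6 CPM for its liver, 0.440 CPM for its brain and 0.148 CPM for its skin. The brain that shares the number of the lowest liver was the second highest brain, and of the 2 skins that share a number with a liver, skin 14 lay above skin 13, as liver 14 did above liver 13. The counting intervals of neighbouring brains and of these skins overlap. That of brain 10, 0.632 to 1.17 CPM, lay above those of brain 11 (0.185 to 0.625), brain 15 (0.129 to 0.493) and brain 14 (0.0303 to 0.285). It overlapped that of brain 13 (0.246 to 0.726). The intervals of the other brains overlap one another, so no order is resolved among them or between these skins. On the log2 scale, liver exceeded brain by 5.05 at number 13 and by 11.41 to 13.20 at the other numbers.

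In brain and skin ins was detected in every library, at levels that few counts support. Brain 10 was the highest sample outside liver, at 0.870 CPM with a 95% exact Poisson interval of 0.632 to 1.17, and 3 counts would stand for 0.0593 CPM there. The interval of each brain and skin overlapped that of its neighbour in the order of levels. Skin 6, at 0.107 CPM, lay under the 0.160 CPM that 3 counts stand for in that library. Of the 5 brains 3 lay above the highest skin, skin 7 at 0.357 CPM, and 2 lay within the range of skins. Pooled over libraries, brain held 85 counts and skin 21, a ratio of brain to skin of 2.21 with an exact counting interval of 1.36 to 3.76. Brain 10 held 44 of these counts, and without it the ratio was 1.45, with an interval of 0.838 to 2.59; with library totals alone it was 3.68, with an interval of 2.26 to 6.25.

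The transcripts most like ins between livers were then listed. Likeness was Pearson's r with ins in log2 CPM over the 5 livers, among the other 231 entries that averaged at least 10 CPM in liver and varied at least 10-fold there. A correlation over 5 points that share library and depth is a description, and none is tested. This gave 9 entries with r from 0.914 to 0.996, and the next entry had r = 0.744. The limit of 0.9 that sets the 9 apart was chosen after this gap was seen. At the other end, 4 of the 231 entries had r below -0.9. Among all 8752 other entries with a mean of at least 10 CPM, whatever their spread, 84 (0.960%) had r above 0.9 and 59 (0.674%) had r below -0.9.

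**Figure D3:**
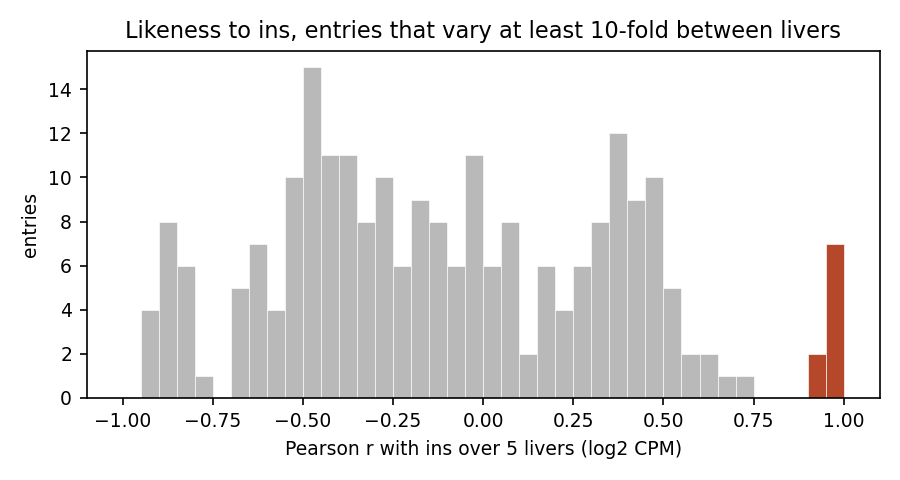
Pearson r with ins over 5 livers in log2 CPM (x) for the 231 entries that varied at least 10-fold between livers, and the number of entries per bin (y). The 9 entries with r over 0.9, in red, stand apart from the next at 0.744.

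The 9 entries were chosen for following ins over these livers, so their order there is set by that choice and is given as a description. All 9 were lowest in liver 13, 5 were highest in liver 15, and 5 had all livers in the order of ins. Among the 231, which include the 9, 23 (9.96%) were lowest in liver 13 and 53 (22.9%) highest in liver 15. The order of ins was found in 5 of the 231. The 9 entries varied 11.1-fold to 357-fold between livers, and 5.72-fold to 15.0-fold without liver 13, with means from 14.6 to 153 CPM. Summed, they stood at 1197 CPM in liver 15, 1242 CPM in liver 10, 417 CPM in liver 11, 182 CPM in liver 14 and 45.9 CPM in liver 13. That sum came to 41.4 to 54.1% of the level of ins in 4 livers and to 314% in liver 13, where ins was lowest. In liver 13 the highest 2 of the 9 stood at 144% and 99.4% of ins, and the rest at 3.05 to 30.5%. Without any single liver, at least 8 of the 9 kept r above 0.9, and all 9 did so without liver 13. When the list of the 10 most similar entries was drawn up anew without liver 13, 2 of the 9 were on it. That list again required a 10-fold range, now over the remaining livers, where the 9 varied 5.72-fold to 15.0-fold and ins 7.50-fold. Absence from it therefore does not measure likeness alone.

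**Figure D4:**
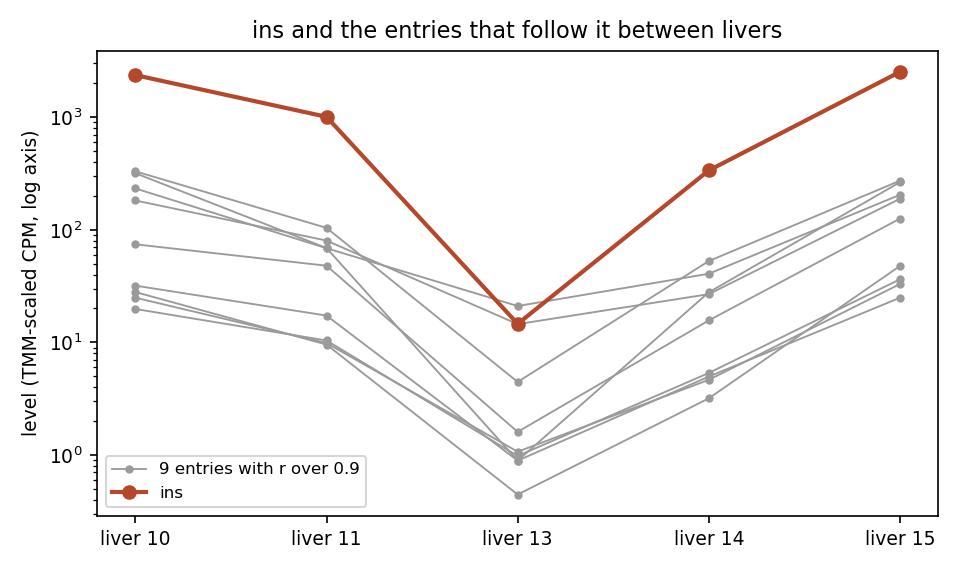
Level in TMM-scaled CPM (y, log axis) of ins (red) and of the 9 entries with r over 0.9 (grey) in each liver (x); each point is 1 library. All lines are lowest in liver 13, and the 9 entries lie below ins in the other livers.

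None of the 9 entries has a name in the files, so only the first 2 are given, by identifier. The most similar, Nofu_gene_3_0007064 (paired with zebrafish ENSDARG00000040907, r = 0.996), stood at 264 CPM in liver 15, 318 CPM in liver 10, 68.8 CPM in liver 11, 27.8 CPM in liver 14 and 0.891 CPM in liver 13. This 357-fold range rests on liver 13, with 10 counts, and was 11.4-fold without it. Over the 5 livers the level of Nofu_gene_3_0007064 stayed between 6.1% and 13.5% of that of ins. It stood at 0.360 ± 0.0761 CPM in brain and 0.108 ± 0.0567 CPM in skin (SD, n = 5 each), and no brain or skin reached the lowest liver. Its choice required a mean of at least 10 CPM in liver, so the contrast with the other organs is described and not tested. The pooled ratio of liver to brain was 408, with a 95% exact counting interval of 321 to 526. Against skin, where 11 counts were found in all, the pooled ratio of liver to skin was 1379, with an interval of 770 to 2763.

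Its catalogue neighbour Nofu_gene_3_0007063 (ENSDARG00000079296, r = 0.995) followed ins between livers and departed from it in 1 skin. It stood at 273 CPM in liver 15, 330 CPM in liver 10, 104 CPM in liver 11, 52.7 CPM in liver 14 and 4.46 CPM in liver 13. The brains lay between 0.149 and 0.573 CPM, below every liver. Skin 7 held 159 CPM, from 3562 counts, whereas the other skins held 0.0544 to 0.492 CPM. Skin 7 was also the highest skin for ins, with 8 counts, and for 6 of the 9 entries, against 35.5% of the 231 and 26.1% of the 8752 entries with a mean of at least 10 CPM in liver. For Nofu_gene_3_0007063 the pooled ratio of liver to brain was 492, with an exact counting interval of 384 to 641. Its ratio of liver to skin was 4.73, with an interval of 4.55 to 4.91, and without skin 7 it was 533, with an interval of 361 to 824. These intervals cover counting error only and leave out the spread between skins.

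Outside liver the 9 entries differed widely in level, with means from 0.293 to 201 CPM in brain. At an adjusted p under 0.05 by edgeR's quasi-likelihood test, 6 of the 9 were higher in liver than in brain, where 36.0% of all 16611 entries tested and 64.5% of the 231 were. The other 3 were lower in liver than in brain and averaged over 100 CPM in brain, and no share of the 231 lower in liver is given beside them. Among all entries tested, 12265 were called against brain in either direction, of which 48.8% were higher in liver and the rest lower. Against skin 6 of the 9 were higher in liver, where 29.3% of all entries tested and 51.5% of the 231 were, while the other 3 had log2 fold changes of 1.06 to 2.25 for liver over skin and did not pass edgeR's test. Without skin 7, 8 of the 9 were higher in liver than in skin, where 29.9% of all entries tested were. Without liver 13 it was likewise 8 of the 9, where 28.2% of all entries were. Against brain both fits again gave 6 higher and 3 lower, where 36.2% of all entries were higher without skin 7 and 35.2% without liver 13. Shares of the 231, and shares lower in liver, are not given for these fits. The choice of entries with at least 10 CPM in liver favours calls higher in liver. Counts higher in liver over all 15 samples are therefore read against the 231, and none of the counts is a result about the 9.

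Over all 15 samples, likeness to ins takes in the contrast between organs as well as the pattern between livers. The 10 entries with the highest r, among the 8752 with a mean of at least 10 CPM in liver, had r from 0.961 to 0.977, and Nofu_gene_3_0007064 was again the first. The second was Nofu_gene_3_0005963 (ENSDARG00000052589, r = 0.966), whose pairing the authors did not mark as a best bidirectional hit. This entry stood at 54.7 CPM in liver 15, 39.5 CPM in liver 10, 29.8 CPM in liver 11, 38.2 CPM in liver 14 and 13.7 CPM in liver 13, a 3.99-fold range. For Nofu_gene_3_0005963 the pooled ratio was 107 for liver over brain (exact counting interval 84.02 to 139) and 96.8 for liver over skin (70.9 to 136), a contrast that its choice by likeness to ins over organs already favours. Of these 10 entries 9 were lowest in liver 13, which their choice by likeness to ins favours, and no share over the 8752 is given beside it. In all, 2 of the 10 were also among the 10 most like ins between livers. Between livers the 10 varied 1.33-fold to 357-fold, and their r with ins over the livers alone ran from 0.552 to 0.996. How far organs and livers each set this list was not tested.

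The genome table, in which the same samples were counted over 23546 gene models, gives no identifier that leads to ins. No model held counts within 2-fold of those of the catalogue entry in every liver. Of the 228 models that averaged at least 10 CPM in liver by library totals and varied at least 10-fold there, 8 (3.51%) followed the catalogue level of ins with r over 0.9, the highest at 0.996. With the same scaling by library totals, 6 of 197 catalogue entries (3.05%) did. These models cannot be tied to catalogue entries by identifier. How many of them belong to the 9 entries, and whether ins itself is among them, is unknown. Likeness lists of the catalogue leave ins out, so the shares of models and of entries may not cover like sets.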

How the data were processed

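RNA of 15 samples was sequenced from TruSeq libraries of total RNA, per the labels' protocols. The authors deposited raw read counts for a transcript catalogue and for genome gene models, and RPKM values for both. Tools listed in the submitters' processing notes are featureCounts 1.4.3-p1, TopHat2 2.0.6, Bowtie and CASAVA 1.8.2, with no role or order. How strand and reads with several matches were treated, and which build and annotation served, is not given in the sources used here. The RPKM sheet of the catalogue has 60 columns of other samples, not used here. No identifier matched the 38438 genes of assembly NfurGRZ-RIMD1 (0 of the catalogue, zebrafish or genome identifiers), so no marker or pathway list could be matched by name, the labelled tissues could not be checked by named markers, and no sequence or coordinate is given.

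Catalogue counts were fitted in edgeR 4.0.16 (R 4.3.3) with filterByExpr (count minimum 10), TMM and a quasi-likelihood model with 1 term per tissue over all 15 samples. P-values were adjusted by Benjamini-Hochberg over all entries, with a threshold of 0.05. The procedure was tested on simulated data. Likeness used log2 CPM with a prior count of 2. Named entries are the first 2 of each likeness list. The gene, lists and rules were chosen with earlier results of these data known. The series information calls the samples of a tissue biological replicates. Intervals cover counting error only. Alternatives used DESeq2 1.42.0, limma 3.58.1 on log2 RPKM, other scalings and filters, the title number as a block, and the removal of single samples.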

Additional observations from a re-analysis of the deposited data

Results flagged for a closer look

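Levels of ins and of the 3 named entries in each organ, with the total counts, made 15 groups of 5 samples, in which a sample far from the rest was looked for by Dixon's criterion (critical value 0.71). For independent, normally distributed values chance gives about 1 in 20, or 0.75 of the 15 groups, and 1 group met it. Because ins was selected on these values and the named entries by likeness to ins, the count is not a test. Nofu_gene_3_0007063 stood at 159 CPM in skin 7, where the next skin held 0.492 CPM, a gap of 0.997 of the whole range. The values of ins itself, which the gene was selected on, are a description, and nothing is read from them here.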

How the results depend on the processing

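The direction of the log2 fold change of ins held under every alternative run. Because ins was selected on these counts, and every liver lay above every brain and skin, this is no test of the direction. Fold changes by limma on log2(RPKM + 1) were 7.82 for liver over brain and 8.38 for liver over skin, a scale that understates the change of low genes. On log2(RPKM + 0.1) they were 8.84 and 10.17. These fits also average log2 values over samples and use no TMM scaling, and the part of each was not tested. In the edgeR fit, leaving out single samples gave 11.10 to 12.09 against brain and 12.16 to 12.91 against skin. The mean level in liver was 785 CPM with library totals alone, against 1249 CPM with TMM, and ran from 930 to 1558 CPM without single livers. Without single livers the ratio of the highest to the lowest liver ran from 7.50, without liver 13, to 173. That ratio was 230 with library totals alone and in deposited RPKM. Calls for liver over brain numbered 12265 (48.8% higher in liver) and 11883 to 12727 without single samples; for liver over skin there were 10434 (46.6%) and 9957 to 10707. With library totals alone 15.8% and 17.2% of calls were higher in liver, around medians of all entries of -1.49 and -0.78 (log2), and ins then had 10.13 and 11.89.

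Of the 10 entries most like ins between livers, 5 were shared on RPKM and 2 to 10 without single livers, the lowest without liver 13. Without single livers the 10-fold limit was applied anew to the livers kept, so an entry can drop out through its range. Over all samples 1 was shared by Spearman, 6 on RPKM and 2 to 8 without single livers. Entries with r over 0.9 between livers numbered 9 of 231 in the main choice. They were 24 of 515 with a minimum mean of 1 CPM, 5 of 158 with 30 CPM and 6 of 197 with library totals alone. With a range limit of 5-fold they were 10 of 605, and with 30-fold 7 of 77. These settings were chosen after seeing the data. Without single livers 8 to 9 of the 9 kept r over 0.9.

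The title number was used as a replicate block in a fit of liver and brain alone, without skin. There 11721 entries were called for liver over brain and ins had a log2 fold change of 10.85. Liver and brain alone without the block gave 11958 calls and a log2 fold change of 11.47 for ins. Deviations of samples with the same number correlated at 0.083 to 0.185, and 4 of 5 livers correlated best with their own brain, a hint from the data, not the design. The depth of brain and skin leaves the level of ins there known only to within the counting intervals given.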
